A study of Mus musculus with 15 samples.

Results

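Transcripts of 8 genes of nitric oxide (NO) and cyclic GMP (cGMP) signalling were measured in mouse skeletal muscle. They are the 3 NO synthases Nos1, Nos2 and Nos3, the 3 caveolins Cav1, Cav2 and Cav3, the cGMP-dependent kinase gene Prkg1 and the cGMP phosphodiesterase gene Pde5a. The genes were chosen by symbol from a table of 22798 gene symbols. All 8 were found and all 8 passed the filter on low counts, which left 17975 genes for testing.

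The muscle came from C57BL/6 mice aged 12 months that were kept on a normal diet and fasted overnight. There were 6 libraries labelled sedentary (wild type), 6 labelled exercise and 3 labelled CD47-KO (CD47-/-, sedentary or not is not given in the sources used here). The type of exercise and the muscle taken are likewise not given, and no label says that each library is a separate animal, so the p-values measure only the spread between these libraries. Total counts per library lay between 50928458 and 70774311 (sedentary), 54851831 and 77628546 (exercise), and 76005277 and 84364189 (CD47-KO). In the title numbering, libraries 1 to 3 of sedentary and exercise stood apart from libraries 4 to 6 of both groups, and no label names these library sets. Sedentary 1 and sedentary 6 also stood apart, with the highest and lowest scaling factors (1.235 and 0.795). The CD47-KO libraries have no counterpart in another batch, so a batch of their own and the genotype cannot be told apart. Counts of mitochondrial genes took 18.1 to 19.2% of the total in CD47-KO and 4.49 to 12.5% in the other libraries except sedentary 6 (18.2%). Among deposited values from 1 to 15, those of 4, 8 and 12 had a share of 32.1 to 33.6% in CD47-KO, 41.7 to 48.5% in sedentary and 43.6 to 50.2% in exercise libraries, so this trait of the counts also separates CD47-KO from the rest. The part of both in the results was not tested.

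Cd47 itself was measured at 11.48 to 12.13 CPM (library-scaled counts) in the libraries labelled CD47-KO, at 11.39 to 16.41 CPM in sedentary and at 10.76 to 15.7 CPM in exercise libraries. Its log2 fold change of CD47-KO against sedentary was -0.26 (SE 0.17, adjusted p = 0.295), and against exercise it was -0.17 (SE 0.17, adjusted p = 0.518). With the GC correction described below, Cd47 was lower in CD47-KO, at -0.97 against sedentary (adjusted p = 0.00790) and -0.80 against exercise (adjusted p = 0.0189). This transcript was lower only with GC correction and was still counted in every CD47-KO library, so it does not settle the label. CD47-KO is therefore used below as a label. Which part of the gene was removed is not given in the sources used here, and reads from a remaining part would still be counted. Markers of the muscle fibre were abundant in every library, with a summed level of 112000 to 257100 CPM over 10 markers.

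NO is made from arginine by neuronal (Nos1), inducible (Nos2) and endothelial (Nos3) synthases. In muscle, a form of the Nos1 protein is held at the fibre membrane by the dystrophin complex, and Nos3 is a protein of vessel walls. NO binds soluble guanylate cyclase, which makes cGMP. The cGMP then activates the kinase encoded by Prkg1, best known for relaxing smooth muscle, and is broken down by the enzyme of Pde5a. Caveolins coat caveolae, the small pits of the cell membrane: Cav1 and Cav2 act together in endothelium, adipocytes and many other cells, Cav3 is the muscle form, and Cav1 and Cav3 bind NO synthases and hold their activity low. CD47 is a receptor of thrombospondin 1, a secreted protein that is known to restrain NO and cGMP signalling.

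The sequences before the caveolin start sites are shown because these 3 relatives gave the widest contrast of the 8 genes in the CD47-KO libraries. Cav2 and Cav1 are neighbours on one strand of chromosome 6, while Cav3 lies farther along the same chromosome. Each line holds the 250 bases before the RefSeq start on GRCm38.p6, plus strand, 5′ to 3′, with E-boxes (CANNTG, the letters bound by MyoD and other helix-loop-helix factors) in capitals. The windows are chr6:17306085-17306334 for Cav1 (the upstream of its listed starts), chr6:17280935-17281184 for Cav2 and chr6:112459255-112459504 for Cav3.
Cav1: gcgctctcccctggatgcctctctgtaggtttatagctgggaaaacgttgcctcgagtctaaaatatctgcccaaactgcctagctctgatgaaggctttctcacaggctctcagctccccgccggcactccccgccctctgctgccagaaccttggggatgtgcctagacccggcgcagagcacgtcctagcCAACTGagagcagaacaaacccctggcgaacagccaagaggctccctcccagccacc
Cav2: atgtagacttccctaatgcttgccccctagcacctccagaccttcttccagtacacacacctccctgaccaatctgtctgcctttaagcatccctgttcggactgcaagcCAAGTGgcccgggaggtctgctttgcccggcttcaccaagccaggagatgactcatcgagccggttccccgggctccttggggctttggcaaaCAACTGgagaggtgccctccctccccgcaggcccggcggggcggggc
Cav3: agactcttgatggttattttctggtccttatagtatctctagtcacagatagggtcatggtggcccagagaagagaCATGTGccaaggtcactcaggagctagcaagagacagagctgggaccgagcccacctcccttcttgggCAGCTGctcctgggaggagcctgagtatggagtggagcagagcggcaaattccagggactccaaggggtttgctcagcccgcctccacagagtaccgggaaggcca
The Cav1 window holds 1 E-box, and the Cav2 and Cav3 windows hold 2 each. An E-box is found in 66.2% of 32851 RefSeq promoter windows of this length, so its presence does not set these genes apart. The GC box (GGGCGG on either strand) occurs once in the Cav1 and Cav2 windows and not in that of Cav3, against 32.7% of all windows. A TATA box (TATAAA, either strand) was found once in the Cav1 window, against 12.4% of all windows. Neither the CArG box nor the MEF2 motif, both sought by name on both strands, matched in the 3 windows, which says nothing of whether their factors bind elsewhere.

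Per kilobase of exon, Cav3 was the most abundant of the 8 transcripts in all 3 groups. In sedentary muscle the level was 33.7 ± 12.3 CPM per kilobase for Cav3 (SD, n = 6), 5.24 ± 1.83 for Nos1, 5.03 ± 0.982 for Cav1 and 3.70 ± 1.16 for Nos3. Below these came Cav2 at 1.12 ± 0.592, Prkg1 at 0.713 ± 0.267, Nos2 at 0.590 ± 0.175 and Pde5a at 0.257 ± 0.132 CPM per kilobase. Nos1, Cav1 and Nos3 did not separate from one another beyond 1 SD, nor did Cav2, Prkg1 and Nos2 from one another. By group means the order was the same in exercise muscle, but it did not hold within the library sets. In exercise 4 to 6, Nos1 (3.21) lay below Cav1 (6.75) and level with Nos3 (3.22), and in sedentary 1 to 3, Cav2 (0.639) lay below Prkg1 (0.806) and Nos2 (0.662). In the CD47-KO libraries the order of the means differed: Cav1 (7.58 ± 5.19, n = 3) and Cav2 (4.25 ± 0.871) came after Cav3 (16.4 ± 1.94) and before Nos1 (4.11 ± 1.41), and Nos2 was the lowest at 0.205 ± 0.0831 CPM per kilobase. Among the synthases, Nos1 was above Nos3 and Nos3 above Nos2 in all 3 groups by their mean level. By library, Nos3 was above Nos1 in sedentary 1 (5.04 against 3.33 CPM per kilobase), sedentary 6 (5.01 against 3.91) and exercise 4.

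The comparison of CD47-KO with sedentary asks how muscle labelled as lacking CD47 differs in this pathway. Of the 8 transcripts, Cav2 and Prkg1 were higher and Nos2, Nos3 and Cav3 were lower in CD47-KO, at an adjusted p under 0.05 by edgeR's quasi-likelihood test. These 5 of 8 stand against 20.7% of all genes tested (11.9% higher, 8.75% lower), where the median log2 fold change of all genes was -0.11. Nos1, Cav1 and Pde5a did not pass. After a correction for the GC content of transcripts, described below, 0 of the 8 passed, against 8.31% of all genes.

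Among the synthases, Nos2, the inducible form known from activated macrophages, was at 1.24, 0.963 and 0.511 CPM in CD47-KO libraries 1 to 3. In sedentary muscle it had a minimum of 1.96, a median of 2.32 and a maximum of 4.11 CPM. Every CD47-KO library was thus below every sedentary library, as for 10.3% of all genes. It differed by a log2 fold change of -1.53 (SE 0.38, adjusted p = 0.00923), or -1.12 with GC correction (adjusted p = 0.0617). Leaving out CD47-KO 3, the lowest library, gave -1.20 (adjusted p = 0.0720). Of 8 macrophage markers, 0 were lower and 1 was higher in CD47-KO, against 8.75% and 11.9% of all genes. Their summed level was 43.6 to 61.2 CPM, within the sedentary range of 16.0 to 75.8 CPM. The part of these markers in the Nos2 result was not tested.

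Nos3, the endothelial synthase, was at 10.4, 8.62 and 4.40 CPM in CD47-KO libraries 1 to 3. The sedentary libraries ran from 9.26 through a median of 14.99 to 20.8 CPM, so the groups overlapped: CD47-KO 1 was above sedentary 4. Nos3 had a log2 fold change of -0.97 (SE 0.30, adjusted p = 0.0302), or -0.43 with GC correction (adjusted p = 0.338). Without sedentary 1 and 6 it was -0.65 (adjusted p = 0.113), and the call was also lost without CD47-KO 3 (-0.64, adjusted p = 0.201), CD47-KO 2 (adjusted p = 0.0617), sedentary 2 (0.0537) or sedentary 6 (0.0676). Of the wild-type library sets, it passed against sedentary 1 to 3 alone (-1.05, adjusted p = 0.0222) and did not against sedentary 4 to 6 alone (-0.76, adjusted p = 0.147). Endothelial markers had a summed level of 302.2 to 359.1 CPM in CD47-KO and 269.9 to 738.9 CPM in sedentary muscle. None was at 0 counts in any library. Of the 12 markers 2 were lower and 0 higher, against 8.75% and 11.9% of all genes. Log2 fold changes were below 0 in 11 of 12, where 45.1% of all genes were above 0. With GC correction 0 of the 12 passed, against 8.31% of all genes. Pecam1, an adhesion protein of endothelium, was at 53.2 ± 4.84 CPM in CD47-KO (SD, n = 3) against 82.0 ± 29.9 CPM (SD, n = 6), with an adjusted p of 0.155. In whole muscle, fewer endothelial cells and less Nos3 RNA per cell cannot be told apart, and the part of these markers in the result was not tested.

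Nos1, the neuronal synthase found in muscle fibres, was at 53.0, 27.7 and 56.6 CPM in CD47-KO libraries 1 to 3. The sedentary libraries ran from 37.2 through a median of 53.8 to 87.7 CPM and covered 2 of the CD47-KO libraries. Its log2 fold change was -0.35 (SE 0.45, adjusted p = 0.644), with a 95% interval of -1.31 to 0.61 that leaves room for a change in either direction. Counts of Nos1 and Nos3 could be affected where exons of antisense genes overlap theirs, as the strand setting of the counting is not given. The antisense genes are Gm26995 for Nos1, and Gm15587 and Atg9b for Nos3. They were at no more than 0.218, 2.29 and 0.4285 CPM in any library, which does not measure how many reads the overlap concerned.

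**Figure D1:**
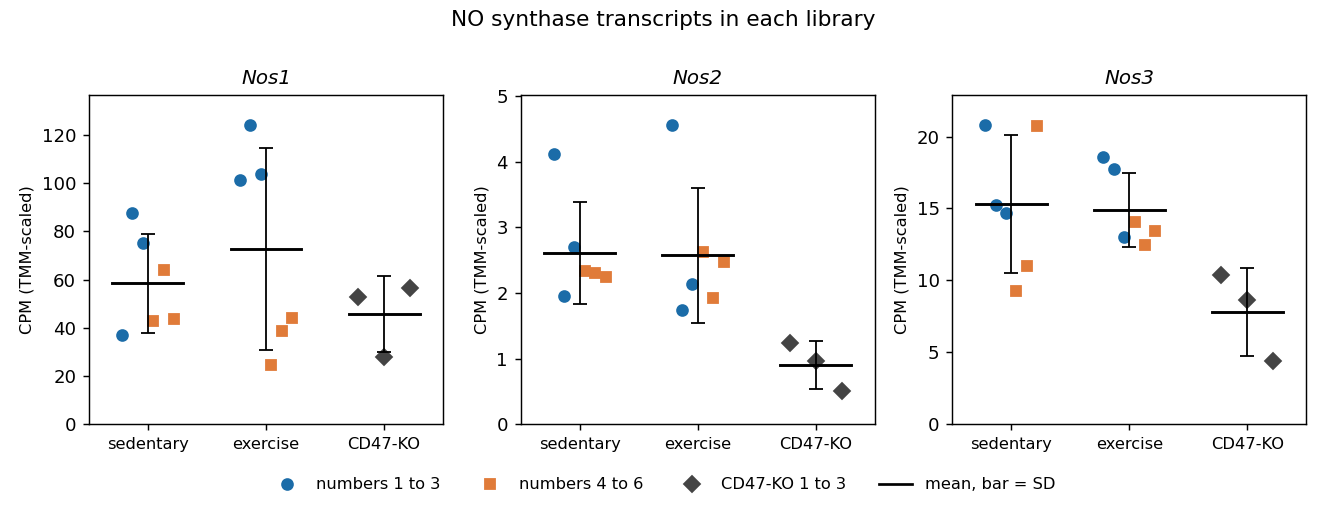
CPM (y axis, from 0) of Nos1, Nos2 and Nos3 in each library by group, with the group mean and SD as bars. All 3 CD47-KO libraries lie below all sedentary and exercise libraries for Nos2, and Nos1 is highest in exercise libraries 1 to 3. Against the sedentary libraries alone, 10.3% of all genes lay lower without overlap.

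The caveolins moved in opposite directions in the CD47-KO libraries. Cav2, the partner of Cav1, was at 12.2, 17.5 and 12.8 CPM in CD47-KO libraries 1 to 3. Its sedentary libraries ran from 1.65 through 3.16 to 6.67 CPM, so each CD47-KO library was above all of them, as for 15.7% of all genes. This gave a log2 fold change of 1.93 (SE 0.44, adjusted p = 0.00567), which is 3.80-fold. With GC correction it was 0.70 (adjusted p = 0.256). The call held in all 9 fits that left out a library of either group, at an adjusted p of at most 0.0377.

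Cav3, the muscle caveolin, was at 21.5, 17.3 and 18.0 CPM in CD47-KO libraries 1 to 3. The sedentary libraries ran from 28.6 through 34.0 to 66.8 CPM, all above the CD47-KO libraries, as for 10.3% of all genes. The log2 fold change was -1.04 (SE 0.25, adjusted p = 0.00696), and the mean level fell from 38.98 ± 14.2 CPM (SD, n = 6) to 18.9 ± 2.25 CPM (SD, n = 3). With GC correction the value was -0.57 (adjusted p = 0.138). Without sedentary 1 and 6 it was -0.79 (adjusted p = 0.00339), and without CD47-KO 3 the adjusted p was 0.0502. Other products of the muscle fibre were lower as well: 4 of 10 myofibre markers fell and 1 rose, against 8.75% and 11.9% of all genes. With GC correction 1 was lower and 1 higher, and their median log2 fold change was -0.11. Acta1, the skeletal muscle actin, was at 18760 ± 1809 CPM in CD47-KO (SD, n = 3) and 37020 ± 4509 CPM in sedentary muscle (SD, n = 6), with an adjusted p of 0.00313 (0.126 with GC correction). The part of these markers in the result was not tested.

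Cav1, the main caveolin of endothelium and adipocytes, spread more widely in CD47-KO than any of the other genes, at 45.0, 23.9 and 9.46 CPM (coefficient of variation 68.5%). These libraries lie on both sides of the sedentary range of 11.9 to 21.3 CPM (median 17.9). The log2 fold change of 0.59 (SE 0.34, adjusted p = 0.247) depended on single libraries: it was -0.0080 without CD47-KO 1 and 1.04 without CD47-KO 3 (adjusted p = 0.0279). Cav1 and Cav2, neighbours in the genome and partners in the caveolar coat, therefore did not share an order among the CD47-KO libraries, since CD47-KO 1 was highest for Cav1 and lowest for Cav2.

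**Figure D2:**
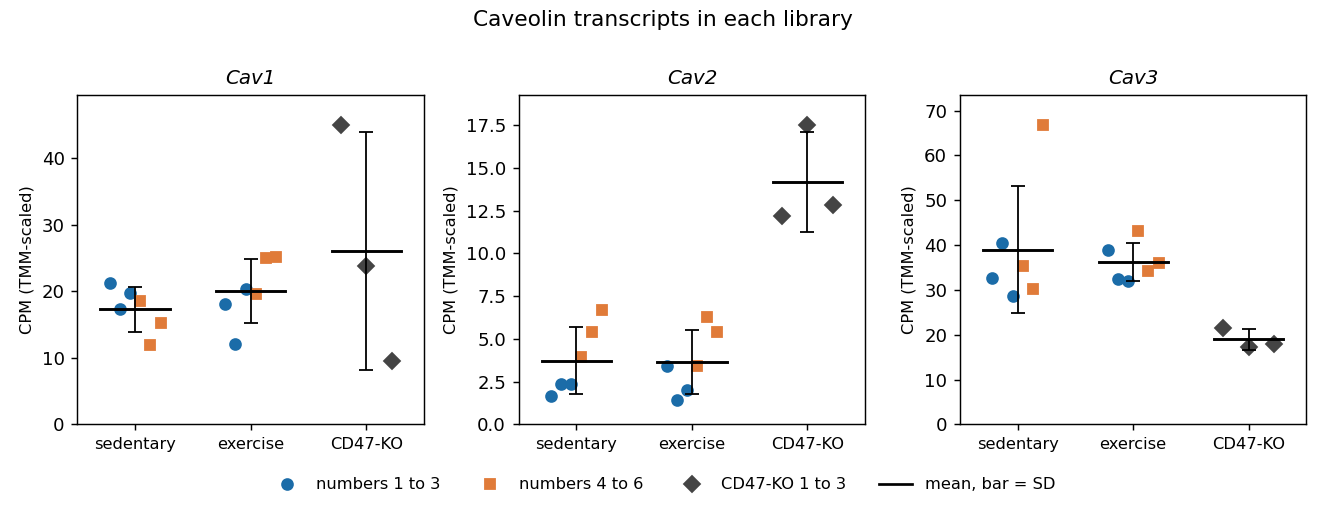
CPM (y axis, from 0) of the 3 caveolins in each library by group, with the group mean and SD as bars. CD47-KO libraries lie above all others for Cav2, below all others for Cav3 and on both sides of the others for Cav1. Against the sedentary libraries alone, 15.7% of all genes lay higher and 10.3% lower without overlap.

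For cGMP signalling, Prkg1, the kinase that cGMP activates, was at 21.8, 23.5 and 14.3 CPM in CD47-KO libraries 1 to 3. Sedentary libraries ran from 3.10 through 7.58 to 11.9 CPM, all below the CD47-KO libraries, as for 15.7% of all genes. The log2 fold change was 1.36 (SE 0.35, adjusted p = 0.0122), which is 2.56-fold, and 0.45 with GC correction (adjusted p = 0.503). Without CD47-KO 2 it was 1.17 (adjusted p = 0.0769). Smooth muscle and pericyte markers, from the cells in which Prkg1 is best known, summed to 553.2 to 614.5 CPM in CD47-KO and 359.9 to 478.6 CPM in sedentary muscle. That sum follows Rgs5, a pericyte gene that rose by 1.59 on the log2 scale (adjusted p = 0.00276; adjusted p = 0.445 with GC correction), whereas 4 of the 11 markers fell and their median log2 fold change was -0.76. Of all genes, 8.75% were lower. With GC correction 0 of the 11 passed, against 8.31% of all genes. None of the 11 was at 0 in any library, and their part in the Prkg1 result was not tested.

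Pde5a, which breaks down cGMP, was the least abundant of the 8 genes per kilobase in sedentary muscle. It was at 1.63, 3.33 and 1.68 CPM in CD47-KO libraries 1 to 3, inside the sedentary range of 0.747 to 4.38 CPM (median 2.66). The log2 fold change was -0.19 (SE 0.48, adjusted p = 0.836), with a 95% interval of -1.21 to 0.83.

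**Figure D3:**
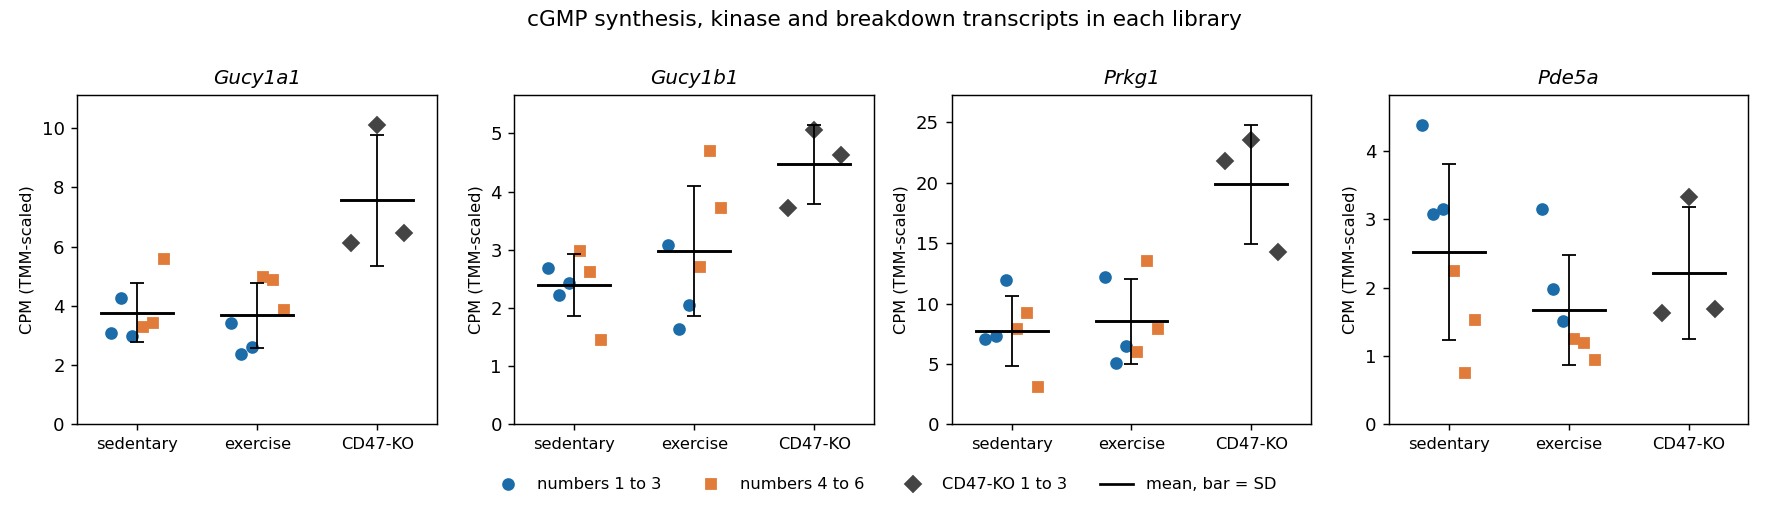
CPM (y axis, from 0) of the soluble guanylate cyclase subunits Gucy1a1 and Gucy1b1, of Prkg1 and of Pde5a in each library by group, with the group mean and SD as bars. CD47-KO libraries lie above all sedentary libraries for the 2 cyclase subunits and Prkg1, and among them for Pde5a. Of all genes, 15.7% lay higher than sedentary without overlap.

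The direction of each call followed the GC content of the transcript. Across 10395 genes with a mean log2-CPM of 1 or more, fold changes of CD47-KO against sedentary fell with GC content, with a Spearman correlation across genes of -0.67. Genes in the decile lowest in GC content had a median of 1.28, and those in the highest decile had -0.58. Transcripts of Cav2 (41.1% GC) and Prkg1 (43.2%) are among the AT-rich ones, whereas those of Nos2 (54.6%), Cav3 (56.6%) and Nos3 (58.7%) lie above the median of 50.1%. The other transcripts of the set have a GC content of 45.9% (Pde5a), 46.5% (Cav1) and 55.3% (Nos1).

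Genes within 1 percentage point of the GC content of each member give a reference for its fold change. For Cav2 the 516 such genes had a median log2 fold change of 1.34, against 1.93 for Cav2 itself. For Prkg1 the median was 0.83, against 1.36. Nos2 was at -1.53 against a median of -0.45, Cav3 at -1.04 against -0.54 and Nos3 at -0.97 against -0.55. Of the genes that were not called, Nos1 was at -0.35 against -0.49, Cav1 at 0.59 against 0.32 and Pde5a at -0.19 against 0.43. These medians are given as a description, since the 5 called genes were picked by the size of the same fold changes. None of the 8 passed with GC correction. Whether the GC relation is of technical or biological origin was not tested.

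**Figure D4:**
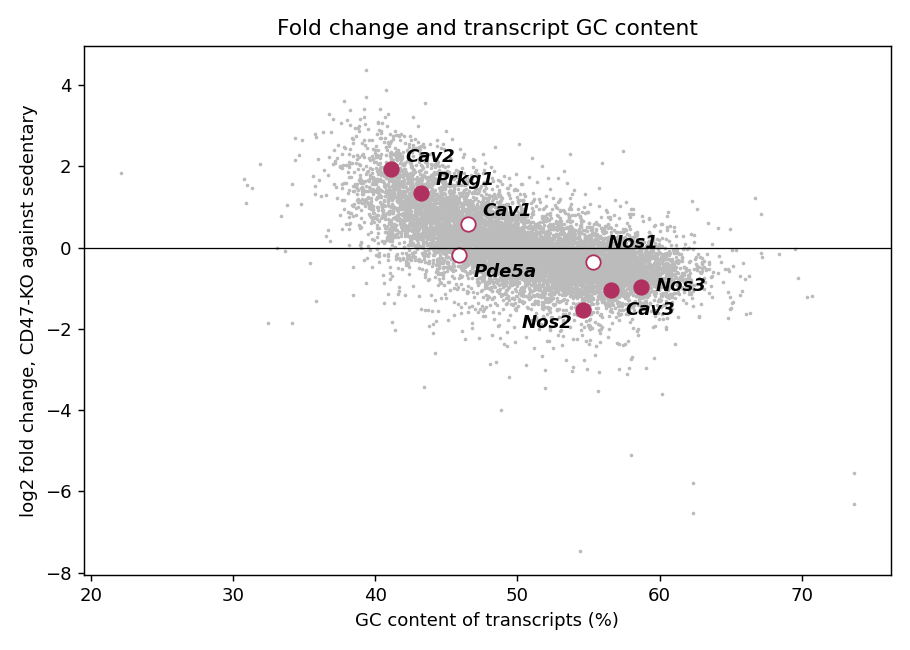
Log2 fold change of CD47-KO against sedentary (y axis) by GC content of the transcript in percent (x axis) for 10395 genes (grey) and the 8 genes named (filled where the adjusted p is under 0.05). The grey cloud slopes down, and Cav2 and Prkg1 lie at its AT-rich end with the 3 lower genes at its GC-rich side.

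CD47-KO was also set beside exercise, a comparison that shares the 3 CD47-KO libraries with the one above. The log2 fold changes against exercise were -1.51 for Nos2 (SE 0.38, adjusted p = 0.00937), -0.93 for Nos3 (SE 0.30, adjusted p = 0.0360), 1.95 for Cav2 (SE 0.44, adjusted p = 0.00474), -0.93 for Cav3 (SE 0.24, adjusted p = 0.0124) and 1.22 for Prkg1 (SE 0.35, adjusted p = 0.0221). These 5 of 8 passed, against 20.6% of all genes (12.2% higher, 8.34% lower). All 5 separated the 2 groups without overlap, as did 31.7% of all genes. With GC correction 0 of 8 passed, against 8.33% of all genes. The Nos3 call was lost in 8 of 9 fits that left out a library. Nos2 and Cav3 each lost the call without CD47-KO 3, and Cav3 and Prkg1 without CD47-KO 2. Prkg1 also lost it without CD47-KO 1 (adjusted p = 0.0675). Nos1 differed by -0.67 (SE 0.46, adjusted p = 0.342), Cav1 by 0.38 (SE 0.34, adjusted p = 0.482) and Pde5a by 0.41 (SE 0.47, adjusted p = 0.599). For Nos1 the value rested on the library set: it was -1.17 against exercise 1 to 3 (adjusted p = 0.0223) and 0.40 against exercise 4 to 6 (adjusted p = 0.383).

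The comparison of exercise with sedentary asks whether exercise changed these transcripts in fasted muscle. None of the 8 passed, against 0% of all genes tested by edgeR, where 665 genes (3.7%) had an unadjusted p under 0.05 and none of the 8 was among them. DESeq2 called 9 genes, with none of the 8 among them, and limma-voom called 0. The largest of the 8 differences was that of Pde5a, with a log2 fold change of -0.60 (SE 0.39, adjusted p = 1.00). Pde5a was at 0.938 to 3.16 CPM in exercise muscle, with a median of 1.39 CPM. Nos1 was at 24.7 to 124.1 CPM (median 72.5), with a log2 fold change of 0.32 (SE 0.37). The remaining 6 genes had log2 fold changes of -0.11 (Cav3), -0.04 (Nos3), -0.03 (Cav2), -0.02 (Nos2), 0.14 (Prkg1) and 0.21 (Cav1). The 95% intervals were narrowest for Cav3 (-0.51 to 0.30) and widest for Pde5a (-1.43 to 0.24), and the data do not exclude changes within these intervals. All 8 genes overlapped between the groups, and only 0.161% of all genes did not.

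**Figure D5:**
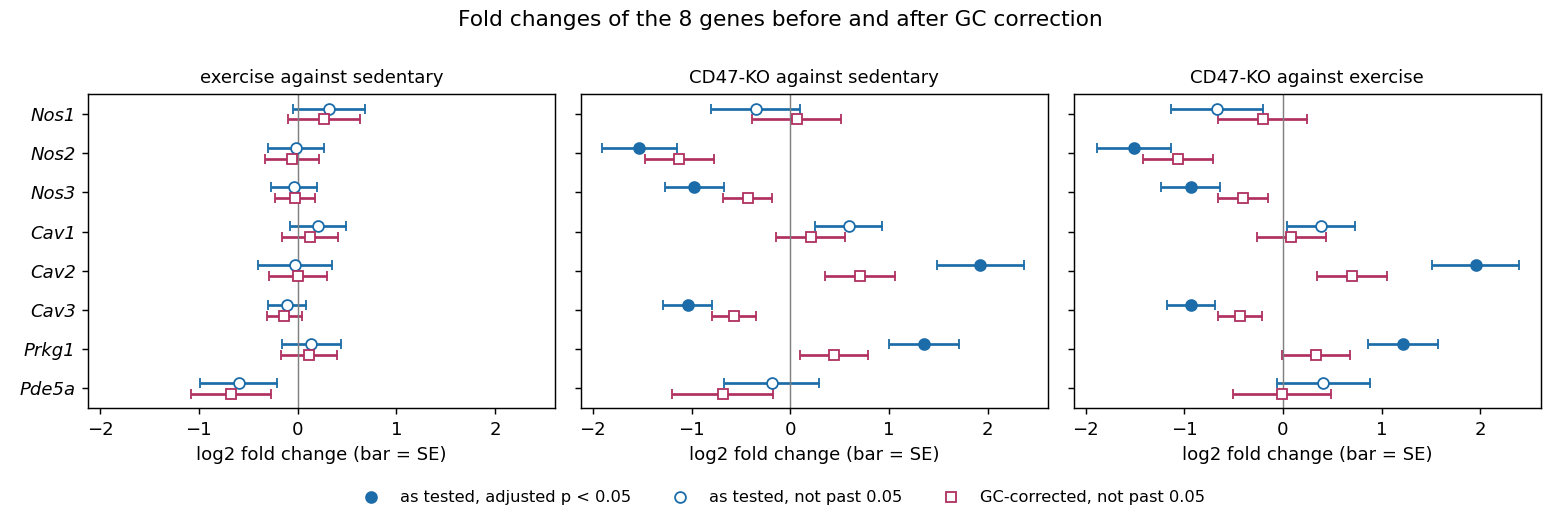
Log2 fold change (x axis, bar = SE) of each of the 8 genes in 3 comparisons, as tested (circles) and with GC correction (squares), filled where the adjusted p is under 0.05. The 5 filled circles of each CD47-KO comparison move toward 0 with GC correction, and no gene is filled for exercise.

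Within the library sets, Nos1 had exercise differences of opposite sign. In libraries 1 to 3 it was at 101.1, 124.1 and 103.9 CPM in exercise and 37.2, 87.7 and 75.3 CPM in sedentary muscle, without overlap, as for 10% of genes in this comparison. In libraries 4 to 6 it was at 24.7, 38.8 and 43.9 CPM in exercise and 42.7, 64.0 and 43.6 CPM in sedentary muscle. The log2 fold changes of exercise were 0.71 and -0.49, and the difference between them was -1.21 (SE 0.44, adjusted p = 0.967 by edgeR over all genes, unadjusted p = 0.0181). Fast glycolytic fibre markers summed to 191400 to 252600 CPM in exercise 1 to 3 and 132500 to 160900 CPM in exercise 4 to 6, while sedentary libraries of the 2 sets ran from 101700 to 217500 CPM and from 147400 to 173400 CPM. The general myofibre markers overlap this list in members. They summed to 208800 to 257100 CPM in exercise 1 to 3 and 152200 to 170200 CPM in exercise 4 to 6. Sedentary libraries of the 2 sets ran from 132000 to 231200 CPM and from 166800 to 182900 CPM. The part of these fibre markers in the Nos1 levels was not tested.

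Cav1 showed the reverse order. Exercise libraries 4 to 6 were at 19.6, 24.9 and 25.1 CPM against 18.6, 11.9 and 15.2 CPM in sedentary libraries, without overlap, as for 14.2% of genes. Exercise libraries 1 to 3 were at 18.1, 12.0 and 20.3 CPM against 21.3, 17.3 and 19.7 CPM. The log2 fold changes were 0.60 and -0.21, with a difference of 0.82 (SE 0.32, adjusted p = 0.967, unadjusted p = 0.0248). No gene passed the test of this difference (0% of 17072 genes; 4.77% at an unadjusted p under 0.05), so neither gene is shown to respond differently in the 2 sets.

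Between the library sets themselves, 3 of the 8 genes differed, against 29.4% of all genes (15.3% higher and 14.1% lower in libraries 1 to 3). This comparison was chosen with the separation of the sets known. Nos1 was higher in libraries 1 to 3, with 88.2 ± 29.9 CPM (SD, n = 6) against 42.9 ± 12.6 CPM (SD, n = 6) and a log2 fold change of 1.02 (SE 0.22, adjusted p = 0.00533). Pde5a was higher too, with 2.88 ± 1.01 against 1.32 ± 0.530 CPM (1.11, SE 0.28, adjusted p = 0.0118). Cav2 was lower, with 2.21 ± 0.697 against 5.17 ± 1.29 CPM (-1.22, SE 0.25, adjusted p = 0.00382). All 3 also passed with GC correction (adjusted p = 0.00906, 0.0136 and 0.0271), as did 29.8% of all genes. The other 5 genes had log2 fold changes between -0.24 (Cav3) and 0.32 (Nos3). The mitochondrial share of counts was 4.49 to 7.87% in libraries 1 to 3 and 7.81 to 18.2% in libraries 4 to 6, and its part in these differences was not tested.

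The wider pathway was described with 6 lists of 64 genes, of which 61 were tested. In CD47-KO against sedentary, 11 were higher and 11 lower, which is 36.1% of those tested, against 20.7% of all genes. With GC correction 5 were higher and 4 lower, against 8.31% of all genes in either direction. The 11 higher genes had a GC content of 40.8 to 48.5% and the 11 lower ones of 48.8 to 60.6%. Against exercise the count was again 11 and 11, against 20.6% of all genes. In both comparisons, which share their CD47-KO libraries, 20 genes were called. Exercise against sedentary gave 0 of 61, against 0% of all genes. Leaving out CD47-KO 2 lowered the count against sedentary from 22 to 13.

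Of the proteins that bind and anchor NO synthases, 3 of 13 rose and 3 fell, against 11.9% and 8.75% of all genes. With GC correction 2 were higher and 1 lower, against 8.31% of all genes in either direction. Sntb1, an adaptor protein that binds dystrophin, rose by 1.23 on the log2 scale (SE 0.32, adjusted p = 0.0115; 0.0347 with GC correction). Hsp90aa1, a chaperone that binds Nos3, rose by 1.79 (SE 0.29, adjusted p = 0.000488; 0.0414 with GC correction). Akt1, a kinase that activates Nos3 protein, fell by 0.66 on the log2 scale (adjusted p = 0.0134; 0.720 with GC correction). The anchoring list thus held changes in both directions, with a median log2 fold change of -0.14, close to the -0.11 of all genes.

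Enzymes of NO synthase cofactors, substrate and inhibitors had 1 gene higher and 3 lower of 14, against 11.9% and 8.75% of all genes. GC correction left 1 higher and 1 lower, against 8.31% of all genes in either direction. Slc7a2, a transporter that brings in arginine, was at 123.9, 140.9 and 500.0 CPM in CD47-KO libraries 1 to 3 and 7.55 to 76.9 CPM in sedentary muscle (median 31.5). Its log2 fold change was 2.67 (SE 0.59, adjusted p = 0.00438; 0.0299 with GC correction). It leaned on CD47-KO 3, without which it was 1.77 (adjusted p = 0.0673). Prmt1, an arginine methyltransferase whose products give rise to the NO synthase inhibitor asymmetric dimethylarginine, fell from 73.3 ± 6.70 CPM (SD, n = 6) to 33.9 ± 5.57 CPM (SD, n = 3), with an adjusted p of 0.000357 (0.0113 with GC correction). Qdpr, which regenerates the cofactor tetrahydrobiopterin, fell by 0.91 (adjusted p = 0.0184), and Asl, which makes arginine from argininosuccinate, fell by 0.73 (adjusted p = 0.0293). Neither passed with GC correction (adjusted p = 0.0906 and 0.396).

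Upstream of Prkg1, 2 of 6 cyclase genes tested rose and 0 fell, against 11.9% and 8.75% of all genes, and 0 of 6 passed with GC correction. Gucy1a1 and Gucy1b1, the subunits of the soluble guanylate cyclase that senses NO, were both higher. Gucy1a1 was at 6.14, 10.1 and 6.45 CPM in CD47-KO and 2.996 to 5.60 CPM in sedentary libraries, with a log2 fold change of 1.00 (SE 0.28, adjusted p = 0.0176). Gucy1b1 was at 3.73, 5.05 and 4.62 CPM against 1.44 to 2.98 CPM, with 0.90 (SE 0.30, adjusted p = 0.0442). With GC correction these were 0.36 (adjusted p = 0.543) and 0.06 (adjusted p = 0.940). Without sedentary 1 and 6, Gucy1b1 had an adjusted p of 0.0669, and against exercise it did not pass (0.58, SE 0.30, adjusted p = 0.194).

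Downstream of Prkg1, 2 of 10 kinase relatives and targets rose and 2 fell, against 11.9% and 8.75% of all genes. GC correction left 2 higher and 1 lower, against 8.31% of all genes in either direction. Ppp1r12a, the targeting subunit of myosin phosphatase, was at 51.3, 51.4 and 53.9 CPM in CD47-KO and 6.05 to 12.8 CPM in sedentary libraries, with a log2 fold change of 2.60 (SE 0.30, adjusted p = 3.82e-05; 0.00372 with GC correction). Rgs2, a regulator of G protein signalling, rose by 2.66 (SE 0.41, adjusted p = 0.000398; 0.0148 with GC correction). Itpr1, a calcium channel of the endoplasmic reticulum, fell from 40.7 ± 6.86 CPM (SD, n = 6) to 20.2 ± 1.78 CPM (SD, n = 3), with an adjusted p of 0.00116 (0.00131 with GC correction). Vasp, an actin regulator phosphorylated by the kinase, fell by 0.86 (SE 0.20, adjusted p = 0.00631; 0.289 with GC correction). Ppp1r12a, Rgs2 and Itpr1 were therefore called with and without GC correction, unlike Prkg1 itself.

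Among the other phosphodiesterases of cGMP, Pde3a and Pde3b rose and Pde2a fell, of 9 tested, against 11.9% and 8.75% of all genes. Pde2a, which cGMP itself stimulates, was at 9.54, 9.51 and 13.9 CPM in CD47-KO and 14.3 to 35.6 CPM in sedentary libraries, with a log2 fold change of -1.27 (SE 0.27, adjusted p = 0.00329; 0.0455 with GC correction). Pde3a rose by 1.13 (SE 0.28, adjusted p = 0.00864) and Pde3b by 1.71 (SE 0.49, adjusted p = 0.0202), both lost with GC correction (adjusted p = 0.378 and 0.751). Of the coat and neck proteins of caveolae, 1 of 9 rose and 2 fell, against the same shares of all genes. Cavin2, a coat protein, was at 41.0, 50.5 and 31.8 CPM in CD47-KO and 14.6 to 28.8 CPM in sedentary libraries (1.21, SE 0.26, adjusted p = 0.00346). Ehd1 and Ehd2, ATPases of the kind that sit at the caveolar neck, fell by 0.85 (adjusted p = 0.00485) and 0.95 (adjusted p = 0.0140). None of these 3 passed with GC correction (adjusted p = 0.382, 0.204 and 0.169).

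Several of these pathway calls rested on single CD47-KO libraries. Without CD47-KO 2, the adjusted p against sedentary was 0.161 for Gucy1a1, 0.0691 for Pde3a, 0.0771 for Pde3b, 0.0627 for Sntb1 and 0.0642 for Akt1. Leaving out CD47-KO 1 gave 0.125 for Akt1, 0.0614 for Qdpr and 0.0820 for Ehd2, and leaving out CD47-KO 3 gave 0.146 for Qdpr, 0.0565 for Pde3b and 0.0797 for Ehd2. Asl and Gucy1b1 each lost the call in 6 of 9 such fits. Among those that kept it in all 9 were Ppp1r12a, Rgs2, Hsp90aa1, Prmt1, Itpr1, Pde2a, Vasp, Cavin2 and Ehd1.

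Across libraries within groups, some of the 8 genes moved together. After subtraction of the means of the 5 groups of libraries (each library set of sedentary and of exercise, and CD47-KO), Nos1 and Pde5a had a Pearson correlation of log2-CPM of -0.71 over 15 libraries. Nos2 correlated with Cav1 at 0.63 and Nos3 with Cav3 at 0.63, while Cav3 and Prkg1 were at -0.59. Cav1 and Cav2 were at only 0.11. Nos3 followed the summed endothelial markers at 0.73, and Cav1, another gene of endothelium, did not, at 0.0077. Nos3 was also at 0.62 with the smooth muscle and pericyte markers. Cav3, the muscle form, was at 0.59 with the endothelial markers and at 0.083 with the myofibre markers. Nos1 followed the fast glycolytic fibre markers at 0.73, and Pde5a ran against them at -0.60. The general myofibre markers, which overlap that list in members, gave like values of 0.72 for Nos1 and -0.60 for Pde5a. These are descriptions: the points share library depth and composition, and 28 pairs of genes and all pairings of the 8 genes with 9 marker lists were looked at.

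The transcripts with the pattern most like each gene were sought by the same measure among 9478 others of sufficient level (9479 for Pde5a). They were Camk2g (0.90) and Prpf3 (0.89) for Nos1, Prickle1 (0.92) and Borcs7 (0.89) for Nos2, and Pparg and Bag1 (both 0.96) for Nos3. For the caveolins they were Gemin2 (0.85) and Mnat1 (0.84) for Cav1, Zfp62 and Yipf5 (both 0.91) for Cav2, and Chrac1 and Macrod1 (both 0.95) for Cav3. For Prkg1 they were Hnrnpa1 and Slc23a2 (both 0.90), and for Pde5a Ttl (0.90) and Tomm22 (0.88). With this many candidates over 15 libraries, high values can arise by chance. None of these genes is in the pathway lists, and Pparg is among the adipocyte markers.

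By place in GRCm38, the 8 genes are spread over 5 chromosomes. Nos1 lies on chromosome 5 from 117781032 to 117958840 and Nos3 on the same chromosome from 24364810 to 24384474, both on the plus strand. Nos2 is on chromosome 11 from 78920787 to 78960254, plus strand. Cav2 (17281185 to 17289115), Cav1 (17306335 to 17341452) and Cav3 (112459505 to 112472872) are on chromosome 6, plus strand. Prkg1 spans 30564489 to 31765033 on the minus strand of chromosome 19, and Pde5a 122728947 to 122859374 on the plus strand of chromosome 3. The counts are over the exons of each gene as a whole and do not separate its transcripts, such as the muscle form of Nos1.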

How the data were processed

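The deposited table holds gene counts for 15 libraries, with 0 columns left unassigned. The authors made them on GRCm38 with HISAT2 2.0.1, HTSeq 0.6.1 and Trimmomatic 0.30, all named in the submitters' processing notes. Whether counting used strand is not given in the sources used here. Among values from 1 to 15, those of 4, 8 and 12 had a share of 32.1 to 33.6% in CD47-KO and 41.7 to 50.2% in the other libraries, so the deposited counts may not be plain counts of single reads. No libraries of the same group were copies of each other (lowest chi-square per degree of freedom 72.0). Libraries of different groups were not checked for this.

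Counts were filtered (filterByExpr), scaled by TMM and tested in edgeR 4.0.16 (R 4.3.3): a robust quasi-likelihood fit of all 15 libraries with 1 mean per group, Benjamini-Hochberg adjustment over all 17975 genes and a threshold of 0.05. Library sets were fitted in the 12 sedentary and exercise libraries with 4 means. SE is the fold change over the square root of F. The GC correction fitted each library's log2-CPM on transcript GC content (lowess, span 0.3) and used the curve as an offset. GC content, length and position came from GENCODE (GRCm38), promoters from RefSeq (GRCm38.p6). The methods were tested on simulated data. The 8 genes and the lists were chosen with earlier results of these data known. From each list, up to 4 genes per comparison that passed were named, by smallest p, except 1 that is not reported here. Alternatives were RLE factors, DESeq2 1.42.0, limma-voom (limma 3.58.1), other filters, only the groups compared, no robust dispersion, no clone symbols, single library sets, a replicate block and leaving out libraries. A second GC correction and the comparison of library sets were added after the data were seen. Exercise and sedentary libraries of the same title number deviated together (correlations of 0.273 to 0.539 in 6 pairs), though other numbers of the same set had a median of 0.366. After subtraction of the means of the library sets, the same-number correlations were -0.15 to 0.302. Other numbers of the same set then ran from -0.429 to 0.353, so no pairing by title number is shown. CD47-KO libraries did not pair by number.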

Additional observations from a re-analysis of the deposited data

Results flagged for a closer look

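In 3 of 16 groups of 6 libraries (8 genes, sedentary and exercise), 1 library lay far from the others by Dixon's criterion. For normally distributed values, chance meets it in about 1 in 20 groups. The CPM were not log-transformed and the 16 groups draw on the same libraries, so no excess over chance is shown. For Nos2, sedentary 1 was at 4.11 CPM, with the next library at 2.69 CPM, and exercise 1 was at 4.56 CPM, with the next at 2.62 CPM. For Cav3, sedentary 6 was at 66.8 CPM, with the next library at 40.4 CPM. Sedentary 1 and sedentary 6 are also the libraries with the highest and lowest scaling factors.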

How the results depend on the processing

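The count of the 8 genes called in CD47-KO against sedentary was 5, with GC correction 0, and 1 (Nos2) with the GC content of the longest transcript; leaving out 1 library gave 3 to 5, with 3 without CD47-KO 2 (Nos2, Cav2 and Cav3) and without CD47-KO 3 (Cav1, Cav2 and Prkg1). Against exercise the count was 5, with both GC corrections 0, with exercise libraries 4 to 6 alone 3, and 2 to 4 when 1 library was left out (2 without CD47-KO 2 or CD47-KO 3). The other alternatives gave 4 or 5 against sedentary and 4 to 6 against exercise. Nos3 was the least stable call: against exercise it was lost with RLE factors (adjusted p = 0.0503), without the filter (adjusted p = 0.0525) and without the 2 clone symbols (adjusted p = 0.0584), and against sedentary with only the groups compared (adjusted p = 0.0926). With libraries 4 to 6 alone it was lost in both comparisons (adjusted p = 0.147 against sedentary and 0.164 against exercise), as was Prkg1 against exercise (adjusted p = 0.0684). For exercise against sedentary and for the exercise effect by library set, none of the alternatives called any of the 8 genes that were tested. The count between library sets was 3 to 4 when 1 library was left out.

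With the title number as a replicate block, 0 of the 8 genes were called for exercise, 5 against sedentary and 6 against exercise, where Nos1 was added (-1.23, adjusted p = 0.0182). In the CD47-KO comparisons this fit kept only libraries 1 to 3 of each group. Nos1 was also called against exercise with libraries 1 to 3 alone and no block, so the added call did not require the block. The CD47-KO numbers pair no samples by the check (correlations of -0.192 to 0.309). For exercise and sedentary, no pairing by number is shown within the library sets (-0.15 to 0.302). The block changed no other call of the 8 genes.

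Some log2 fold changes that had not passed changed sign. For exercise against sedentary, this was so without sedentary 1 and 6 for Nos2 (0.15), Nos3 (0.24), Cav2 (0.055), Cav3 (0.0998) and Prkg1 (-0.089), with libraries 1 to 3 alone for Cav1 (-0.23), Cav2 (0.087), Cav3 (0.0083) and Prkg1 (-0.15), and with libraries 4 to 6 alone for Nos1 (-0.48) and Nos2 (0.028). Limma-voom gave 0.0066 for Nos3 and 0.080 for Cav2, and the 2 GC corrections 0.0063 and 0.039 for Cav2. Against sedentary, Nos1 was 0.064 with GC correction, Cav1 -0.29 with that of the longest transcript and Pde5a 0.60 with libraries 4 to 6 alone. Against exercise, Nos1 was 0.40 with libraries 4 to 6 alone, Cav1 -0.42 with the correction by longest transcript and Pde5a -0.0097 with GC correction. Leaving out 1 library gave ranges across 0 for exercise against sedentary in Nos2 (-0.26 to 0.15), Nos3 (-0.16 to 0.064), Cav2 (-0.26 to 0.21), Cav3 (-0.18 to 0.098) and Prkg1 (-0.041 to 0.31). The same held for Cav1 (-0.0080 to 1.04) and Pde5a (-0.65 to 0.039) against sedentary, and for Cav1 (-0.21 to 0.83) and Pde5a (-0.051 to 0.69) against exercise. The cause was not tested.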
